A study of Mus musculus with 12 samples.

Results

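The transcripts described here encode leukaemia inhibitory factor (Lif), the receptor subunits Lifr, Il6st (gp130) and Osmr, the transcription factor Stat3, the feedback inhibitor Socs3, and the macrophage growth factor Csf1. They were chosen by name, with earlier results of these data known. All 7 were listed in each of 3 expression tables that together hold 12003 genes. RNA sequencing of total RNA measured them in Ocy454, a mouse cell line that resembles osteocytes, which are cells buried in bone matrix. The 12 samples form 4 groups of 3: wild-type cells given vehicle (DMSO in the column names), wild-type cells given parathyroid hormone (PTH), wild-type cells given PF431396, and PDE8A KO cells, whose columns also name DMSO. PF431396 inhibits focal adhesion kinase and the related kinase PYK2, and Pde8a encodes a phosphodiesterase that breaks down cyclic AMP, the messenger made when PTH binds its receptor. The labels give no dose, no treatment time and no count of clones behind the KO libraries.

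LIF is a secreted cytokine that binds its receptor LIFR, which then pairs with gp130, a subunit shared by the whole interleukin-6 family. Oncostatin M uses gp130 paired with OSMR. The paired receptors activate JAK kinases, which phosphorylate STAT3, and STAT3 switches on Socs3, whose product binds gp130 and JAK and damps the signal. In bone, cytokines of this family act on osteoblasts, osteocytes and osteoclasts. CSF1 stands outside that family and signals to osteoclast precursors through its own receptor, CSF1R.

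Every level below is a normalised estimated count: within a table, an estimated count per gene divided by 1 factor per library. Between tables the same vehicle libraries differed gene by gene, with an SD over genes of 0.07 to 0.12 in their log2 ratio. Levels and estimated counts of different tables are therefore not on 1 scale. Changes are log2 fold changes against the 3 vehicle libraries with their standard error (SE), tested with limma and adjusted over all genes of the table. A gene is said to have risen or fallen where its adjusted p was under 0.05 and its log2 fold change was at least 1 in either direction. The labels number the libraries without saying that they came from separate cultures, so the p-values measure the spread between these samples, which may be technical. In bulk RNA, fewer cells that make a transcript and less of it per cell cannot be told apart.

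The libraries held 27715795 to 35752975 estimated counts in listed genes, and the lowest listed estimated count was 11. PF431396 libraries 1 and 3 had identical values in all 11490 listed rows and were counted as 1 library, so n = 2 for PF431396. Vehicle library 1 stood apart, with r = 0.947 against vehicle library 2 and 0.945 against library 3 across genes of the KO table, where libraries 2 and 3 gave 0.992. Of 14 osteocyte and osteoblast markers 11 were listed, while Mepe, Sost and Fgf23 were not. Their summed level, in which Col1a1 is the largest part and low markers weigh little, was lowest among vehicle libraries in library 1. Of 13 macrophage and osteoclast markers 3 were listed, Cd68, Cd14 and Ctsk, and neither the 4 fat cell nor the 4 endothelial markers were. Pde8a stood at 2074, 2438 and 2037 in the KO libraries against 3100, 2579 and 2890 in the vehicle libraries, so the transcript was lower in all 3 but still present.

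Promoter sequence is shown first for Socs3, Stat3 and Osmr, which rose under PTH, and for Lif, which fell in the other groups. That of Lifr, which fell in KO cells, is not printed; its windows held none of the motifs searched. RefSeq windows of GRCm38.p6, from 250 bases before to 50 after each transcript start, matched all 7 members in 8 windows, since Lifr has 2 starts. They were searched on both strands for the STAT motif TTCNNNGAA, the cyclic AMP response element TGACGTCA, its core TGACG, and the AP-1 motif TGANTCA. The stretches below are printed 5′ to 3′ on the gene's own strand, with motif letters in capitals. The first 3 run from 250 to 101 bases before the start of Socs3 (chr11:117969467-117969616, minus strand), Stat3 (chr11:100939641-100939790, minus strand) and Lif (chr11:4257318-4257467, plus strand). The fourth line gives the 27 bases around the Osmr match (chr15:6874294-6874320, minus strand), which overlap an annotated exon.
Socs3: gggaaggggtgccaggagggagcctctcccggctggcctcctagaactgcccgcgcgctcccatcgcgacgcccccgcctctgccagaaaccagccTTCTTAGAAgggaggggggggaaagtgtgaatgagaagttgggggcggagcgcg
Stat3: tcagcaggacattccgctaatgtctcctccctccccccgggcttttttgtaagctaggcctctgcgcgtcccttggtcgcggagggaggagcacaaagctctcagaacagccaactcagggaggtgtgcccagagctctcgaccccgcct
Lif: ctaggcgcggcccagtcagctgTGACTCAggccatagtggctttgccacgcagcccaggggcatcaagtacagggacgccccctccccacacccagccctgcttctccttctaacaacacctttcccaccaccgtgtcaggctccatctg
Osmr: gccccgtagtTGATTCAtagctggggc

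None of the 3 longer stretches overlaps a GENCODE exon. The whole windows of Socs3 and Osmr lie inside the annotated gene spans, so each of these annotated genes begins upstream of the window searched. The Socs3 window held 1 STAT match, 154 to 146 bases before the start. The Lif window held 1 AP-1 match, 228 to 222 bases before the start, and the Osmr match to the same motif covers bases 4 to 10 of the transcript. No member window held TGACGTCA or TGACG, and the Stat3 window held none of the 4 motifs. Of 32851 promoter windows of 300 bases, 8.30% held TTCNNNGAA, 7.81% TGANTCA, 20.8% TGACG and 1.79% TGACGTCA. A match describes letters and not a bound site, and no match says only that these letters are not in this window.

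Under PTH 3 of the 7 members rose (Osmr, Stat3 and Socs3) and none fell, where 3.87% of all genes tested changed, 2.86% upwards and 1.01% downwards. Under PF431396 none rose and 2 fell (Lif and Socs3), where 26.2% of all genes changed, 10.9% upwards and 15.2% downwards. In KO cells none rose and 2 fell (Lif and Lifr), where 11.5% of all genes changed, 6.32% upwards and 5.13% downwards. Under PTH 4 members lay wholly above the vehicle libraries and 0 wholly below, against 19.0% and 16.8% of all genes. Under PF431396 2 lay above and 2 below, against 31.8% and 34.0%, and in KO cells 1 lay above and 2 below, against 25.4% and 24.4%. The 3 PTH calls held under every alternative run. Of the osteocyte and osteoblast markers, Pdpn alone was called under PTH, where it rose, and their summed level of 204829 to 241330 lay inside the vehicle range of 61685 to 246430, whose low end is vehicle library 1. Without vehicle library 1 Dmp1, Sp7 and Pth1r were also called, all lower, without vehicle library 3 Bglap and Spp1 were also called, both higher, and without PTH library 3 none of the 11 was.

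Lif, the secreted ligand (GRCm38 chr11:4257557-4272514, plus strand), was low in PF431396 and in KO cells and not in PTH cells. In the PTH table it stood at 1742, 537 and 431 in vehicle libraries 1, 2 and 3 and at 821, 751 and 710 in the PTH libraries. The PTH libraries lay inside the vehicle range, above vehicle libraries 2 and 3 and below library 1, and the fold change was 0.04 ± 0.49 (SE, adjusted p = 0.970, 95% interval -1.11 to 1.19). Without vehicle library 1 it was 0.66 (adjusted p = 0.00763), under the fold threshold, and with libraries scaled to the same total it was -0.08.

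Under PF431396 Lif fell from 1516, 477 and 382 in the vehicle libraries to 87.3 and 79.1, by 2.96 ± 0.60 on the log2 scale (adjusted p = 0.0124). Both PF431396 libraries lay below every vehicle library. These are levels resting on 75 and 70 estimated counts. The fall was 2.35 without vehicle library 1 (adjusted p = 0.0032), and the call was lost when either PF431396 library was left out, at -3.03 (adjusted p = 0.0719) and -2.89 (adjusted p = 0.0841), where 1 library stands for the group and is assumed to vary like vehicle.

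In KO cells Lif fell from 1661, 519 and 416 to 72.3, 95.2 and 125, by 2.89 ± 0.51 on the log2 scale (adjusted p = 0.00623). All 3 KO libraries, resting on 74, 105 and 137 estimated counts, lay below every vehicle library. The KO fall was called with each library left out in turn, from -3.28 to -2.28. Osteocyte and osteoblast markers were also low in KO cells: 7 of the 11 listed fell and 1 rose, with a median of -2.84. Their summed level, 114512 to 125841, lay inside the vehicle range of 63794 to 258475. That sum is mostly Col1a1 and Spp1, with KO means of 82206 and 30919 and neither called, so it hardly reflects the markers that fell. In PF431396 cells 2 of the 11 rose, Bglap and Spp1, and the sum was 295362 to 326722 against 50468 to 205966. Without vehicle library 1 the count was 3 risen and 2 fallen (Sp7 and Pth1r), without vehicle library 3 it was 3 risen, without either PF431396 library 1, and with the identical libraries each counted 4. The share of counts from 13 mitochondrial genes was 11.8% and 13.0% in the PF431396 libraries and at most 5.19% in the others. The part of these differences in the values of Lif and the other members was not tested.

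**Figure D1:**
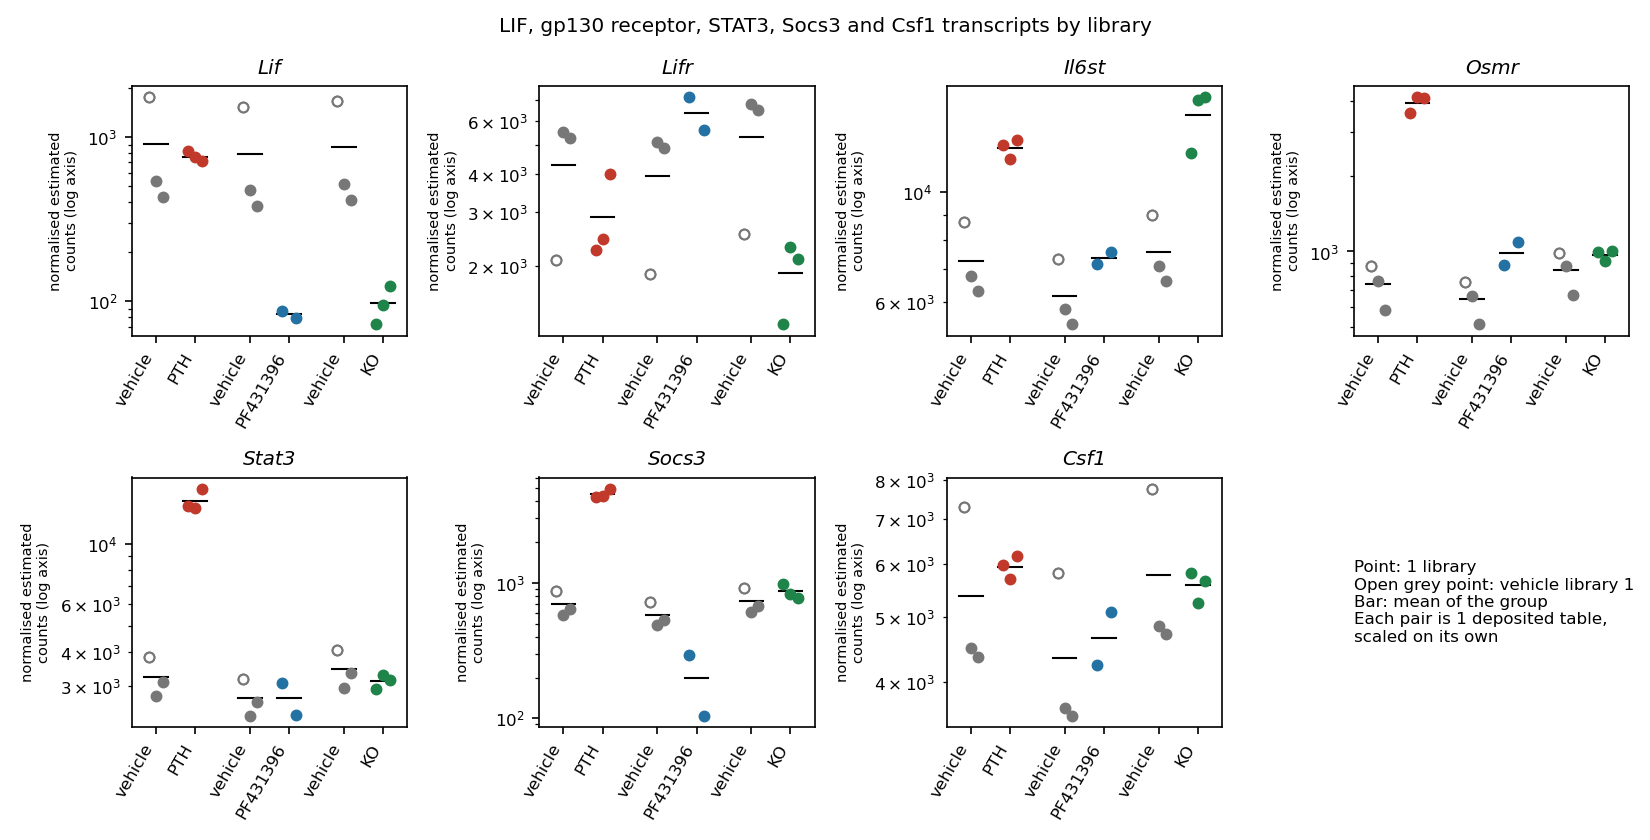
Normalised estimated counts of each transcript (log axis) in every library, with vehicle and treated or KO libraries paired by deposited table, each table scaled on its own; points are libraries, the open grey point is vehicle library 1, and bars are group means. Lif is under 130 in all PF431396 and KO libraries and at 382 or more in every vehicle library, while Osmr, Stat3 and Socs3 are high in the 3 PTH libraries.

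Osmr, the oncostatin M receptor subunit (chr15:6813577-6874969, minus strand), rose under PTH. Its level went from 876, 761 and 581 in the vehicle libraries to 3587, 4148 and 4126 in the PTH libraries. The groups did not overlap, and the change was 2.43 ± 0.17 (adjusted p = 0.000493), from 739 ± 148 to 3953 ± 318 (SD, n = 3 each). In the PF431396 table the levels were 751, 666 and 510 in vehicle and 882 and 1095 in PF431396 libraries, which lay above all vehicle libraries, at 0.63 ± 0.25 (adjusted p = 0.0902). With libraries scaled to the same total that value was 0.10. In the KO table Osmr stood at 990, 872 and 666 in vehicle and at 995, 913 and 1001 in KO libraries, overlapping, at 0.22 ± 0.18 (adjusted p = 0.377).

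Il6st, which encodes gp130 (chr13:112464070-112510086, plus strand), was higher in PTH and KO cells by less than the fold threshold. It stood at 8727, 6772 and 6301 in vehicle and at 12466, 11675 and 12762 in PTH libraries. Every PTH library lay above every vehicle library, with a fold change of 0.77 ± 0.14 (adjusted p = 0.0202). In the KO table it was at 9015, 7085 and 6596 in vehicle and at 12024, 15399 and 15605 in KO libraries, again without overlap, at 0.93 ± 0.17 (adjusted p = 0.00733). The KO value passed the fold threshold without vehicle library 1, at 1.06 (adjusted p = 0.000245), or without KO library 1, at 1.05 (adjusted p = 0.0172). Under PF431396 it stood at 7148 and 7566 against 7313, 5788 and 5390 in vehicle, overlapping, at 0.27 ± 0.18 (adjusted p = 0.263), and at -0.27 with libraries scaled to the same total.

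Lifr, the LIF receptor subunit (chr15:7090614-7197489, plus strand), fell in KO cells. Its level was 2540, 6812 and 6510 in the vehicle libraries and 1281, 2299 and 2107 in the KO libraries. All 3 KO libraries lay below every vehicle library, the nearest being vehicle library 1, and the change was -1.39 ± 0.40 (adjusted p = 0.0360). Without vehicle library 1 it was -1.86 (adjusted p = 0.000208). The call was lost without any 1 KO library and without vehicle library 2 or 3, at -1.56 to -1.13 with adjusted p from 0.0764 to 0.137.

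Under PTH Lifr stood at 2254, 2453 and 3998 against 2084, 5520 and 5273 in vehicle. The PTH libraries lay between vehicle library 1 and the other two, at -0.49 ± 0.41 (adjusted p = 0.509), or -0.94 without vehicle library 1 (adjusted p = 0.0239), under the fold threshold. PF431396 libraries held 7159 and 5589 against 1884, 5089 and 4865 in vehicle. They lay above every vehicle library at 0.81 ± 0.44 (adjusted p = 0.187), but at 0.35 without vehicle library 1 (adjusted p = 0.0803) and 0.28 with libraries scaled to the same total.

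Stat3, the transcription factor that the receptors activate (chr11:100885098-100939540, minus strand), rose under PTH and passed the test in neither of the other comparisons. It went from 3837, 2747 and 3095 in vehicle to 13850, 13594 and 15979 in PTH libraries, with no overlap. The change was 2.18 ± 0.15 (adjusted p = 0.000493), from 3226 ± 557 to 14474 ± 1309 (SD, n = 3 each). PF431396 libraries held 3073 and 2349 against 3183, 2324 and 2620, at 0.00 ± 0.21 (adjusted p = 0.999, 95% interval -0.50 to 0.50). KO libraries held 2922, 3291 and 3162 against 4080, 2957 and 3334, at -0.13 ± 0.15 (adjusted p = 0.526, 95% interval -0.48 to 0.21), with 1 KO library just below the vehicle range. With libraries scaled to the same total, the PF431396 value was -0.53.

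Socs3, the feedback inhibitor (chr11:117966079-117970047, minus strand), rose under PTH and fell under PF431396. Vehicle libraries stood at 876, 578 and 639 and PTH libraries at 4353, 4370 and 4958. No PTH library came near the vehicle range, and the change was 2.73 ± 0.17 (adjusted p = 0.000379), from 698 ± 157 to 4560 ± 345 (SD, n = 3 each). In the PF431396 table the level fell from 719, 485 and 536 to 292 and 104, a change of -1.71 ± 0.47 (adjusted p = 0.0320). Both PF431396 libraries were below every vehicle library, but on the log scale they lay further apart than the vehicle libraries. Without PF431396 library 2 the change was -0.97 (adjusted p = 0.104), and the call was also lost without vehicle library 1, at -1.54 (adjusted p = 0.0598), and without vehicle library 3, at -1.75 (adjusted p = 0.0511). In KO cells Socs3 stood at 985, 835 and 776 against 915, 612 and 676 in vehicle, overlapping, at 0.25 ± 0.19 (adjusted p = 0.360).

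Csf1, the growth factor for osteoclast precursors (chr3:107741048-107760469, minus strand), passed the test in none of the 3 comparisons. Vehicle libraries held 7283, 4489 and 4367 and PTH libraries 5968, 5701 and 6157, at 0.18 ± 0.20 (adjusted p = 0.618, 95% interval -0.29 to 0.66). In the PF431396 table the vehicle libraries held 5821, 3660 and 3563 and the PF431396 libraries 4239 and 5081, at 0.13 ± 0.25 (adjusted p = 0.699), or -0.40 with libraries scaled to the same total. KO libraries held 5821, 5249 and 5651 against 7758, 4844 and 4714 in vehicle, at -0.01 ± 0.20 (adjusted p = 0.969, 95% interval -0.48 to 0.45). In all 3 tables the treated or KO libraries lay below vehicle library 1 and above vehicle libraries 2 and 3. Without vehicle library 1 the values were 0.42 under PTH (adjusted p = 0.00101), 0.36 under PF431396 (adjusted p = 0.044) and 0.22 in KO cells (adjusted p = 0.0764), all under the fold threshold.

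In the authors' deposited table, whose columns hold the identical PF431396 libraries as 2 samples, Lif had a log2 fold change of -3.23 under PF431396. In the authors' deposited table of KO cells it was -3.15. In the authors' deposited table of PTH cells Lif was at -0.25, where limma gave 0.04. For Socs3 under PF431396 the authors' deposited value is -1.34, where limma gave -1.71. The authors' deposited fold changes lay within 0.0097 of the log2 ratio of linear means, on which a high library weighs more than on mean log2 levels. For Osmr under PF431396 the authors' deposited table gives 0.57 with adjusted p = 0.0214, where limma on distinct libraries gave 0.0902.

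**Figure D2:**
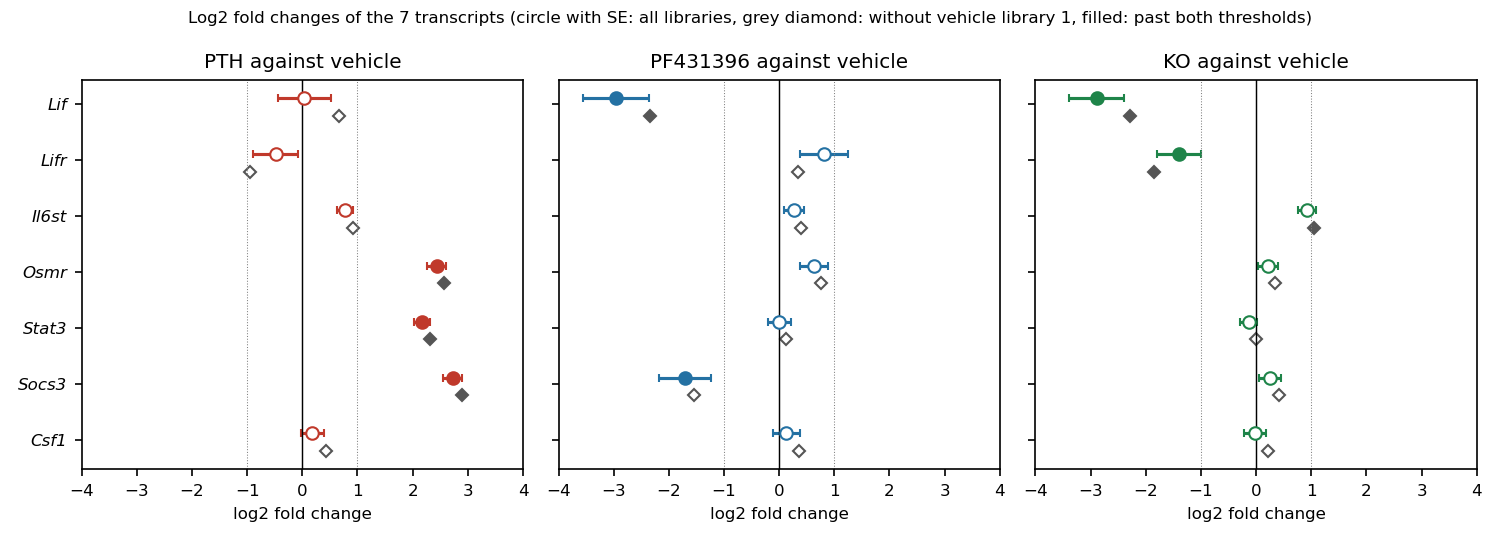
Log2 fold change against vehicle of the 7 transcripts in the 3 comparisons, as circles with SE for all libraries and grey diamonds without vehicle library 1; filled symbols had an adjusted p under 0.05 and lay past a dotted line, drawn at a log2 fold change of 1 in either direction. Osmr, Stat3 and Socs3 are filled under PTH with and without vehicle library 1, and Lif is filled under PF431396 and in KO cells.

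The 3 conditions were also set directly against each other, on log2 values minus the vehicle mean of the same table, over 11088 genes shared by the tables. The vehicle libraries are the same in all tables, so the 3 changes above share them, and these direct differences do not depend on their spread beyond the tables' scaling. PTH exceeded PF431396 for Socs3 by 4.44 ± 0.34 (adjusted p = 2.40e-06), for Lif by 2.99 ± 0.24 (adjusted p = 3.01e-06), for Stat3 by 2.17 ± 0.13 (adjusted p = 6.57e-07) and for Osmr by 1.80 ± 0.15 (adjusted p = 3.37e-06). Lifr was lower under PTH than under PF431396, at -1.30 ± 0.28 (adjusted p = 0.00216), which became -0.88 with libraries scaled to the same total (adjusted p = 0.0190). By the same rule 5 of the 7 members differed, 4 higher and 1 lower, and 35.3% of all genes did, 19.9% higher and 15.4% lower under PTH.

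PTH exceeded KO for Lif by 2.93 ± 0.21 (adjusted p = 3.61e-06), Socs3 by 2.48 ± 0.30 (adjusted p = 9.56e-05), Stat3 by 2.31 ± 0.12 (adjusted p = 3.44e-07) and Osmr by 2.21 ± 0.13 (adjusted p = 1.00e-06). These are 4 of 7 members, all higher, where 15.5% of all genes differed, 8.16% higher and 7.36% lower. PF431396 exceeded KO for Lifr by 2.21 ± 0.28 (adjusted p = 7.10e-05) and was below KO for Socs3, at -1.96 ± 0.34 (adjusted p = 0.000544), or -1.22 without PF431396 library 2 (adjusted p = 0.000185), where 33.4% of all genes differed, 14.0% higher and 19.4% lower. Under the fold threshold, Il6st was lower under PF431396 than in KO cells, at -0.66 ± 0.12 (adjusted p = 0.000626), and at -1.19 with libraries scaled to the same total (adjusted p = 1.18e-05). Lifr was higher under PTH than in KO cells, at 0.91 ± 0.25 (adjusted p = 0.0123), and passed the fold threshold without KO library 2 or 3 or without PTH library 1 or 2, at 1.00 to 1.07. Lif did not differ detectably between PF431396 and KO, at -0.07 ± 0.24 (adjusted p = 0.822). Csf1 passed the test in none of these, at 0.05 ± 0.10 for PTH against PF431396 (adjusted p = 0.661), 0.20 ± 0.09 for PTH against KO (adjusted p = 0.0939) and 0.14 ± 0.10 for PF431396 against KO (adjusted p = 0.230).

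Ordered by mean log2 level relative to vehicle, Lif ran PTH, vehicle, KO, PF431396. Of the gaps between neighbours in that order, only the one between vehicle and KO passed the test. Lif also passed it between vehicle and PF431396, and between PTH and each of KO and PF431396, as given above. PTH and vehicle could not be ordered for Lif, since the linear mean was 761 under PTH and 903 in vehicle. Osmr, Stat3 and Socs3 were each highest under PTH, by a gap past the test. Below PTH, Stat3 in PF431396, vehicle and KO cells did not differ beyond the spread, and Osmr in PF431396, KO and vehicle cells differed by less than the fold threshold. Socs3 ran PTH, KO, vehicle, PF431396, with KO and vehicle not told apart. Il6st ran KO, PTH, PF431396, vehicle, and Lifr ran PF431396, vehicle, PTH, KO, with no neighbouring gap past both thresholds. No neighbouring gap passed the test for Csf1.

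The other genes of the pathway were counted by role, in lists drawn up with earlier results of these data known, so the counts only describe. The shares of all genes to set beside them were 2.86% higher and 1.01% lower under PTH. They were 10.9% and 15.2% under PF431396, and 6.32% and 5.13% in KO cells. Of 10 gp130 cytokine ligand genes counted, 4 were listed in each table: Lif, Il11, Cntf and Clcf1. Under PTH 2 of the 4 rose and none fell. Il11, the interleukin-11 gene, went from 51.3 ± 25.2 to 509 ± 201 (SD, n = 3 each), by 3.31 ± 0.42 (adjusted p = 0.00533). Clcf1, a ligand of the ciliary neurotrophic factor receptor, rose by 1.55 ± 0.16 (adjusted p = 0.00198). The median of the 4 under PTH was 0.79 against -0.003 over all genes tested, whose medians were -0.016 under PF431396 and -0.002 in KO cells. Under PF431396 and in KO cells Lif was the only one of the 4 called, with medians of 0.42 and -0.56.

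Of 8 receptor genes, 5 were listed: the 3 members, Il6ra and Il11ra1. Under PTH, 1 rose (Osmr) and 1 fell, with a median of -0.14. Il6ra, the interleukin-6 receptor, fell under PTH by 1.14 ± 0.27 (adjusted p = 0.0473), a call lost whichever library was left out, and under PF431396 by 1.35 ± 0.32 (adjusted p = 0.0208), lost without PF431396 library 1. It was the only receptor called under PF431396, where the median was 0.35. Il11ra1, the interleukin-11 receptor, rose in KO cells by 1.44 ± 0.20 (adjusted p = 0.00231) while Lifr fell, with a median of 0.22.

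Of 11 JAK kinases and STAT factors, 10 were listed, and Stat3 was the only one called under PTH. The other 5 listed STAT genes ranged from -0.12 (Stat5b) to 0.51 (Stat6) there, and the median of the 10 was 0.26. In KO cells 2 JAK genes fell and none rose: Jak2, which gp130 receptors use, by 1.57 ± 0.16 (adjusted p = 0.000808) and Jak3, a kinase best known from lymphocytes, by 2.91 ± 0.39 (adjusted p = 0.00211). Both KO calls held with each library left out. Jak3 rose under PF431396 by 1.67 ± 0.38 (adjusted p = 0.0179), a call lost without either PF431396 library. The medians were -0.11 under PF431396 and -0.10 in KO cells.

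Of 15 inhibitors of the pathway, all were listed in the PTH and KO tables and 14 in the PF431396 table. Under PTH 4 rose and none fell, with a median of 0.02: Socs3, Cish by 1.63 ± 0.19 (adjusted p = 0.00375), Ptpn1 by 1.49 ± 0.21 (adjusted p = 0.00790) and Socs2 by 1.14 ± 0.19 (adjusted p = 0.0134). Cish and Socs2 encode relatives of SOCS3, and Ptpn1 a tyrosine phosphatase. Ptpn1 lost its call without PTH library 1, and Socs2 lost it without any 1 PTH library or vehicle library 2. Under PF431396 none of the 14 rose and 4 fell, where 15.2% of all genes fell, with a median of -0.61: Pias4 by 2.68 ± 0.27 (adjusted p = 0.00263), Ptpn2 by 1.76 ± 0.29 (adjusted p = 0.00654), Socs3, and Socs4 by 1.05 ± 0.33 (adjusted p = 0.0455). Socs4 lost its call without any 1 vehicle library or PF431396 library 2, and, at -0.89, with the identical libraries each counted. The count of fallen inhibitors was 2 without vehicle library 1, without vehicle library 3 or without PF431396 library 2, 5 without PF431396 library 1 and 6 with libraries scaled to the same total. In KO cells 2 rose and 2 fell, with a median of -0.36. Socs2 rose by 1.51 ± 0.17 (adjusted p = 0.00114) and Socs1 by 1.23 ± 0.27 (adjusted p = 0.0144), while Cish fell by 1.41 ± 0.26 (adjusted p = 0.00769) and Socs6 by 1.36 ± 0.26 (adjusted p = 0.00827). Socs1 lost its call without KO library 1 or 2.

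Of 22 genes listed as STAT3 targets, which include the members Socs3, Osmr and Stat3, 19 were listed in the PTH table. Under PTH 12 of these rose and 1 fell, with a median of 1.82, where 2.86% of all genes rose and 1.01% fell. The 12 include those members, and the list was chosen with earlier results of these data known, so the count is no independent test. Junb, an AP-1 subunit, rose by 2.39 ± 0.12 (adjusted p = 0.000152), Il4ra, the interleukin-4 receptor, by 3.03 ± 0.19 (adjusted p = 0.000343), and Vegfa, the angiogenic factor, by 1.46 ± 0.09 (adjusted p = 0.000343). The others that rose were Bcl3, Pim1, Fos, Cebpd, Cebpb and Timp1, from 1.18 (Pim1) to 3.47 (Cebpd), and Ccnd1, the cyclin D1 gene, fell by 1.42 ± 0.13. Fos, Junb and Cebpb are known targets of cyclic AMP signalling as well. Leaving out 1 library gave 10 to 14 risen and 1 fallen, and Fos and Timp1 lost their calls without any 1 PTH library. Under PF431396, of 18 listed 3 rose and 4 fell, with a median of -0.49, where 10.9% of all genes rose and 15.2% fell. Junb rose by 1.54 ± 0.17 (adjusted p = 0.00287) and Fos by 2.95 ± 0.46 (adjusted p = 0.00571), while Bcl6 fell by 2.13 ± 0.26 (adjusted p = 0.00324) and the survival gene Mcl1 by 1.21 ± 0.20 (adjusted p = 0.00689). The call of Mcl1 was lost without either PF431396 library (adjusted p = 0.0544 and 0.0600) and that of Fos without PF431396 library 2 (adjusted p = 0.0531). Scaling libraries to the same total gave 2 risen and 9 fallen there, and leaving out PF431396 library 2 gave 1 and 1. In KO cells 1 of 19 was called, where 11.5% of all genes changed, with a median of -0.01. It was Mcl1, which fell by 1.19 ± 0.17 (adjusted p = 0.00289).

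**Figure D3:**
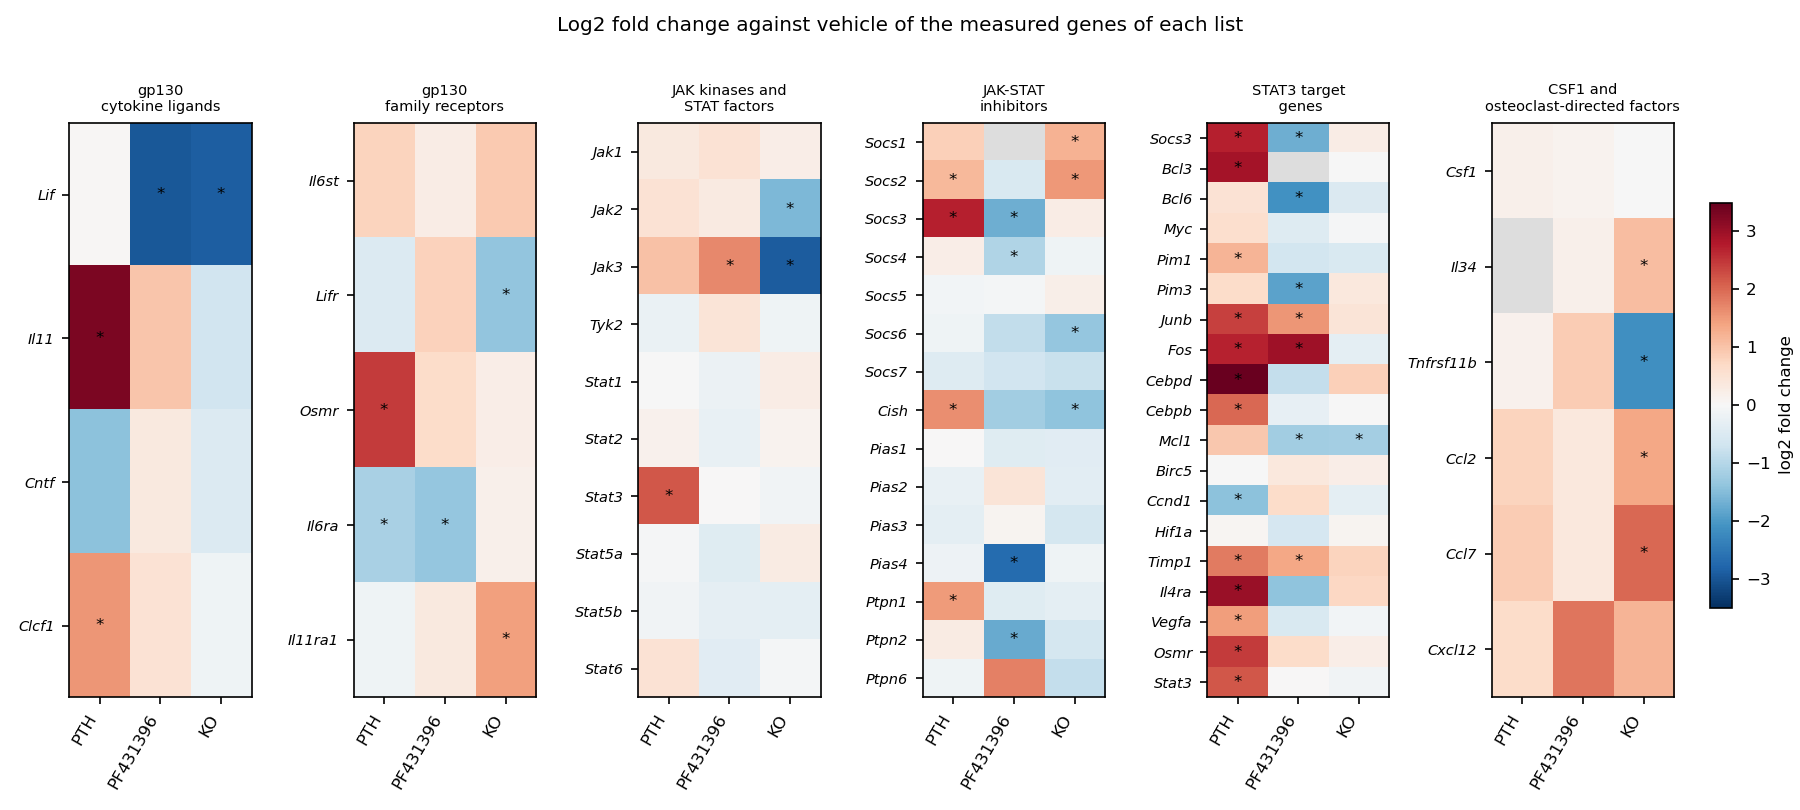
Log2 fold change against vehicle (colour scale) of every listed gene of the 6 pathway lists, with 1 column per comparison; an asterisk marks an adjusted p under 0.05 with a log2 fold change of at least 1, and grey marks a gene that the table does not list. In the STAT3 target panel 12 genes are marked higher in the PTH column, among them the members Socs3, Osmr and Stat3. In the JAK and STAT panel Stat3 is the only gene marked in that column.

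Of 11 genes for CSF1 and other factors that act on osteoclasts, 5 were listed in the PTH table and 6 in the others. None was called under PTH or PF431396, with medians of 0.63 and 0.37. In KO cells 3 rose and 1 fell, with a median of 1.13. The chemokine genes Ccl7 and Ccl2 rose by 2.02 ± 0.45 (adjusted p = 0.0150) and 1.34 ± 0.32 (adjusted p = 0.0203), and Il34, the other known ligand of CSF1R, by 1.08 ± 0.26 (adjusted p = 0.0202), while Tnfrsf11b, which encodes the RANKL decoy osteoprotegerin, fell by 2.16 ± 0.61 (adjusted p = 0.0349). Levels of the 3 that rose were low. Means went from 33.1 in vehicle to 130 in KO libraries for Ccl7, from 105 to 255 for Ccl2 and from 59.2 to 126 for Il34. That of Tnfrsf11b went from 723 to 126. None of the 4 was called without KO library 1 or without KO library 2. Ccl2 and Tnfrsf11b also lost their calls without KO library 3, Il34 and Tnfrsf11b without vehicle library 2, and Tnfrsf11b without vehicle library 3. With a pseudocount of 10 Il34 was at 0.97, under the fold threshold. Of the 3 macrophage and osteoclast markers listed, Ctsk rose in KO cells and Cd68 and Ctsk under PF431396. Their summed level was 1804 to 3391 in KO against 1008 to 1194 in vehicle libraries, and 3778 to 4989 in PF431396 against 817 to 967, with Ptprc, Csf1r and Adgre1 not listed. That sum is mostly Ctsk. In KO cells the mean was 2058 for Ctsk, 537 for Cd68 and 109 for Cd14, the last 2 not called. The part of cells with these markers in the values above was not tested.

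**Figure D4:**
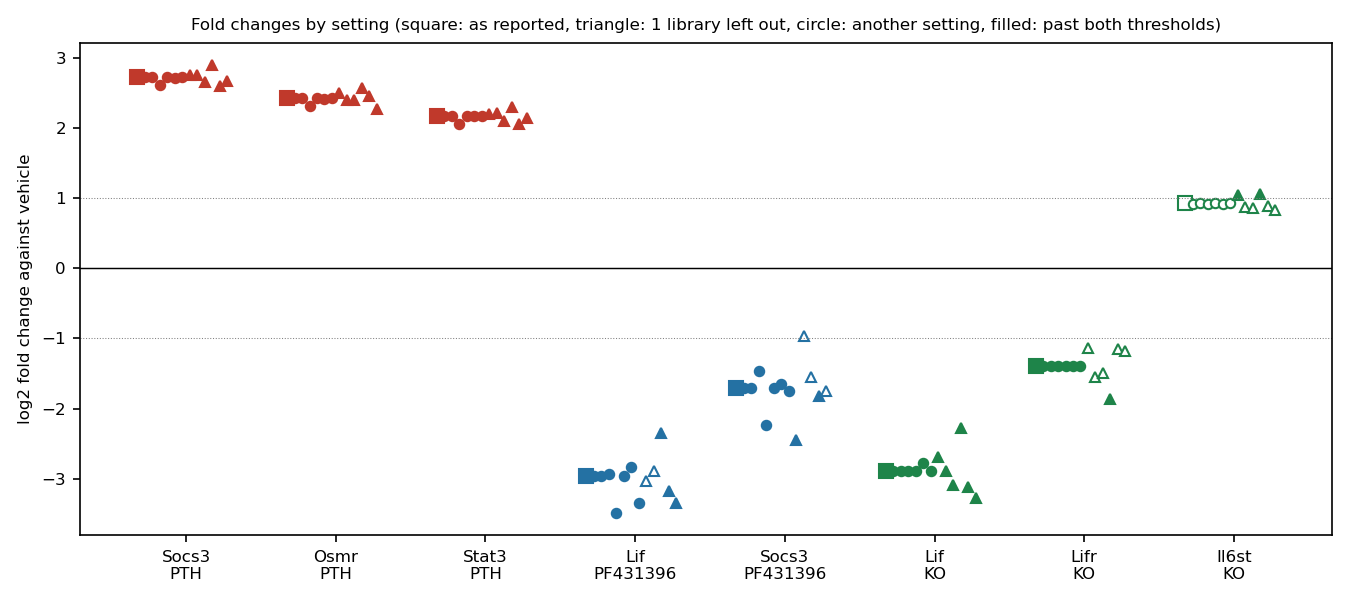
Log2 fold change of the 7 member calls and of Il6st in KO cells under each setting: the square is the value as reported, triangles leave out 1 library, circles change another setting, and filled symbols passed both thresholds. Socs3, Osmr and Stat3 under PTH and Lif in KO cells are filled throughout, while Lif and Socs3 under PF431396 and Lifr in KO cells have open triangles.

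The genes whose pattern was most like that of a member were taken from 10262 genes with a mean of at least 100 in every table, by Pearson's r over the 8 distinct PTH, PF431396 and KO libraries after subtracting the vehicle mean. These libraries fall into 3 groups, so r mostly reflects the group means, and it ignores the size of a change. For Lif they were Arid4a (r = 0.997), Cmtm4 (0.995) and Aqr (0.994), whose KO fold changes of -0.97, 0.51 and -0.49 were each smaller than that of Lif. For Socs3 they were Snrpd1 (0.997), Adss2 (0.996) and Ythdc1 (0.996), and for Csf1 Dph5 (0.945), Cdc26 (0.940) and Plxna1 (0.934).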

How the data were processed

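FastQC 0.11.5, Salmon, DESeq2 and the build GRCm38 are named in the submitters' processing notes. The deposited signal values, 1 table per comparison, were whole estimated counts divided by 1 factor per library: 100% of values were whole multiples within 0.02. A count test was not run on them. Rows naming no gene, at most 0.0249% of a library, and 1036792 empty rows were left out. The authors' deposited log2 fold changes and deposited adjusted p-values were used only where named, and the deposited −log10 of the latter not at all.

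Each table was fitted alone with limma 3.58.1 (R 4.3.3; trend and robust variance) on log2(value + 1), a scale that understates changes of low genes, with Benjamini-Hochberg adjustment. Direct comparisons used vehicle-centred values. The fits of single tables were run on simulated data with independent noise. That simulation held no outlying library and did not cover the direct comparisons. Members, gene lists and tests were chosen with earlier results of these data known. Named genes were the members, up to 4 called genes per list and comparison by smallest adjusted p, and the 3 most similar genes of Lif, Socs3 and Csf1. Other genes named from the counts were chosen after their values were seen. The fits did not pair libraries by replicate number, which the labels do not tie to a shared batch. Fits with that number as a block are given below. One gene of the ligand list is not reported here and was left out of its counts.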

Additional observations from a re-analysis of the deposited data

Results flagged for a closer look

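The changes of several members differed between conditions by a test of the difference itself (limma on vehicle-centred log2 values). PTH against PF431396 gave 2.99 for Lif, -1.30 for Lifr, 1.80 for Osmr, 4.44 for Socs3 and 2.17 for Stat3, with 19.9% of all genes higher and 15.4% lower by the same rule. PTH against KO gave 2.93 for Lif, 2.21 for Osmr, 2.48 for Socs3 and 2.31 for Stat3, with 8.16% higher. PF431396 against KO gave 2.21 for Lifr and -1.96 for Socs3, with 14.0% higher and 19.4% lower. No group here has the 4 or more distinct libraries that a search for single outlying values needs.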

How the results depend on the processing

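No member or other named gene changed direction while called, under any alternative. Over genes and settings, 528 of the members' values kept their side of the thresholds, called or not, 11 lost the call and 7 gained it. The lost calls were those of Lif and Socs3 under PF431396, and of Lifr in KO cells and between PTH and PF431396. For the other named genes the numbers were 781, 42 and 7. That tally leaves out the direct comparisons, which the members' tally includes, so they cannot be set against each other. Leaving out 1 library gave 219 to 614 changed genes for PTH (456 as reported; 252, 245 and 219 without PTH library 1, 2 or 3), 1756 to 2917 for PF431396 (3005) and 967 to 1405 for KO (1328), and 3 to 3, 0 to 2 and 1 to 3 changed members. For the direct comparisons the ranges were 3779 to 4118 (PTH against PF431396), 1597 to 1759 (PTH against KO) and 3608 to 3921 (PF431396 against KO). With no fold threshold 908 genes passed for PTH and 3223 for KO. Scaling libraries to the same total moved the median of all genes from -0.00 to -0.12 for PTH and from -0.02 to -0.55 for PF431396, and the share of calls that were higher from 73.9% to 62.6% and from 41.8% to 9.02%; in the direct comparisons that share went from 56.3% to 82.2%, 52.6% to 41.0% and 42.0% to 16.4%. Relative to the shifted median of -0.55, Stat3 (-0.53), Csf1 (-0.40) and Il6st (-0.27) under PF431396 were near or above it. The deviations of same-numbered libraries correlated weakly at most (r from -0.05 to 0.10). In the KO table each vehicle library correlated best with its own number, at 0.10, 0.06 and 0.07 against -0.10 to 0.04 for other numbers. The 2 distinct PF431396 libraries mirror each other around their mean, so each r there appears with both signs. With the replicate number as a block 403, 2749 and 1305 genes changed, 3814, 1715 and 3684 in the direct comparisons, and 3, 2 and 2 members. Il34 in KO cells then had adjusted p = 0.0500, and 4 of the 11 osteocyte and osteoblast markers rose under PF431396. The planned count test on recovered counts was not run. The cause of the moved calls was not tested. With n = 2 and 70 to 137 estimated counts of Lif in the low groups, small differences of Lif between PF431396 and KO were not detectable.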
